A study of Rattus norvegicus with 4 samples.

Results

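The solute carrier genes, named Slc and a family number, were described here in glomerular RNA from male Wistar rats given Adriamycin (ADR, also called doxorubicin). All genes of the deposited table whose symbol begins with Slc and a digit were taken, which gave 261 of the 13261 genes used. They fell into 50 numbered families and each was annotated as protein coding. Carriers of the Slco series do not match that pattern and are not included. Symbols rather than function chose the members, so a few are not carriers: Slc9a3r1 and Slc9a3r2 encode the NHERF scaffold proteins that hold transporters at the membrane, and Slc4a1ap and Slc7a6os are named after a neighbouring or partner carrier.

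A single group of 4 replicates was measured. The rats weighed about 150 to 175 g, received Adriamycin by intravenous injection, and had their glomeruli isolated with a sieve. Kidneys were taken on day 11 or day 21 of the wider study, and the labels do not say which day applies to these rats. Rats given puromycin aminonucleoside with or without oral treatment belong to that wider study and are not analysed here; no uninjected rats are among these samples, so nothing below measures an effect of Adriamycin. The labels call the samples replicates without saying that each is a separate rat, which is assumed below; the p-values measure the spread between these 4 libraries. Poly(A) RNA was sequenced, and the libraries held 13566962, 16207027, 15348629 and 15244063 reads assigned to the genes used in replicates 1 to 4. Every Slc gene had at least 13 reads in each library, and the median Slc gene had a mean of 404.75 reads. Values are CPM (reads scaled to a common library total) or their log2, and are not corrected for transcript length, so they are compared between replicates and not between genes.

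Solute carriers move ions, sugars, amino acids, organic acids, metals and metabolites across the plasma membrane and the membranes of organelles. In the kidney, the proximal tubule reclaims most of the filtered phosphate, glucose, amino acids and bicarbonate, and secretes drugs and organic ions, through carriers placed at the brush border or at the basolateral membrane. Downstream segments reabsorb salt through the Na-K-2Cl cotransporter Slc12a1 of the thick ascending limb and the Na-Cl cotransporter Slc12a3 of the distal convoluted tubule. Glomeruli themselves consist of podocytes, endothelial cells and mesangial cells, which use more widely expressed carriers.

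The members were grouped by the site of expression they are known for, in lists written with earlier results of these data known, so the counts by list are a description and not independent evidence. Of 51 proximal tubule carriers named for the purpose, 43 were in the table, as were 6 of 12 distal nephron carriers, 33 of 35 broad or glomerular carriers and 6 of 8 carriers of blood cells and macrophages. The remaining 173 Slc genes were in none of these 4 lists. The labelled tissue was checked with markers other than carriers: all 10 podocyte markers looked for, among them nephrin (Nphs1), were present in each library, and together took 0.684% to 1.18% of the reads. All 15 proximal tubule markers that are not carriers were present too and took 0.767% to 1.75%, so RNA of tubule genes was measured as well.

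Promoters are shown for 6 carriers, as the RefSeq table for the rat assembly GRCr8 gives them, because the order of the replicates is described below for both tubular groups. Each runs from 250 bases before to 50 bases after the annotated start, 5′ to 3′ on the gene's strand. Slc34a1 (sodium phosphate cotransport), Slc3a1 (the rBAT subunit of cystine transport), Slc5a12 (lactate uptake) and Slc22a8 (the organic anion transporter OAT3) belong to the proximal tubule, and Slc12a1 and Slc12a3 to the distal nephron. Capitals mark TATAAA or the HNF4-type motif CAAAGTCCA on either strand; where TATAAA and its reverse complement overlap, the capitals cover both.
Slc34a1, chr17:9238934-9239233, minus strand: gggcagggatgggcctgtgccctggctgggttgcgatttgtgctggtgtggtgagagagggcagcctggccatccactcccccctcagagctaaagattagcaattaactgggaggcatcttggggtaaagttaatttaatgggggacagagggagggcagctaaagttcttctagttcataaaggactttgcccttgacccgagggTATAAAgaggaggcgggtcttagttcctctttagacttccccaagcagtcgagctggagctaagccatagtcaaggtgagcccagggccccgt
Slc3a1, chr6:15394700-15394999, minus strand: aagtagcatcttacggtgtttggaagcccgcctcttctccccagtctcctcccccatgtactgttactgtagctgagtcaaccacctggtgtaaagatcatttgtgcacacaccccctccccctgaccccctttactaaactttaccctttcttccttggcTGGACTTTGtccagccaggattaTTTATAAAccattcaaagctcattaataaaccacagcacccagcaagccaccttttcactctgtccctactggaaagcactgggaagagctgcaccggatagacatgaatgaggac
Slc5a12, chr3:117633637-117633936, plus strand: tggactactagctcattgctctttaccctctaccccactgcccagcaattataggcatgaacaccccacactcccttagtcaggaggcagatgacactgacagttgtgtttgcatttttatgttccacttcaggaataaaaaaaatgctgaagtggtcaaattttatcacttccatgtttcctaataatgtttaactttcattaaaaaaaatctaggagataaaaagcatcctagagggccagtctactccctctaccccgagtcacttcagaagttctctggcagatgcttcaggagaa
Slc22a8, chr1:214927034-214927333, plus strand: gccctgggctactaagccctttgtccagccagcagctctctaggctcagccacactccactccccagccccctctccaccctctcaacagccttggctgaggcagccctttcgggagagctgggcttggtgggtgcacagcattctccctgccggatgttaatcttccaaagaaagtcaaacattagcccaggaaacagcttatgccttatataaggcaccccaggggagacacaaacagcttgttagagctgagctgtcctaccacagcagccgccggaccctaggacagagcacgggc
Slc12a1, chr3:132859409-132859708, plus strand: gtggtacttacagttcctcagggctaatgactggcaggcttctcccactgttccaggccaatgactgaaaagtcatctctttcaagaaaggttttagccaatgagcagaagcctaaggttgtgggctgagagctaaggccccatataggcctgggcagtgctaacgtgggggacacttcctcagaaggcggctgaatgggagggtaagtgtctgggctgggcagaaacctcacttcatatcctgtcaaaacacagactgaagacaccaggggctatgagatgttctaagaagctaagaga
Slc12a3, chr19:10675001-10675300, minus strand: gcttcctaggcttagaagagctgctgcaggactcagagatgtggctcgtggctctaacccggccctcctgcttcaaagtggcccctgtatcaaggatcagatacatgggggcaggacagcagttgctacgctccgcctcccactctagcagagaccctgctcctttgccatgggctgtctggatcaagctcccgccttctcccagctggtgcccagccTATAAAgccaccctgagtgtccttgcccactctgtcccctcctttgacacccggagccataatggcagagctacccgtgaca

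The table held promoters for 198 of the 261 members and for 34 of the 43 proximal tubule carriers. TATAAA was found in 4 of those 34 promoters (Slc34a1, Slc3a1, Slc6a19 and Slc13a1) and in 14.3% of all 27457 promoters of the same length. CAAAGTCCA was found in 1 of the 34, that of Slc3a1, and in 0.375% of all promoters. The palindromic HNF1-type motif, searched without mismatches, was found in 0 of the 34 and in 0.00364% of all promoters. Both strands were read, and a match is a description of letters only.

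The proximal tubule carriers shared 1 feature across the replicates: 40 of 43 had their lowest value in replicate 3, where 19.6% of all genes had theirs. In 29 of the 43 the gap below the next value exceeded the 95% Poisson intervals of the reads, against 4.62% of all genes. The median carrier of the list stood in replicate 3 at 0.573 times the mean of the other replicates, with a range of 0.393 to 1.06, whereas the median over all genes was 1.02. On the log2 scale the median difference was -0.78. In bulk RNA, fewer tubule cells and less RNA of these genes per cell cannot be told apart. The list took 0.628%, 0.505%, 0.335% and 0.543% of the reads in replicates 1 to 4, or 0.503% ± 0.123 (SD, n = 4). Low values there were also found elsewhere in the family: of the 173 Slc genes in none of the 4 lists, 67 (38.7%) were lowest in replicate 3, and 27 of them beyond the Poisson intervals. The lists are not complete, so some of the 173 may be proximal tubule genes too. Replicate 1 was the highest for 24 of the 43 proximal tubule carriers, against 27.7% of all genes, and replicate 3 was the highest for 0 of them, against 29.6%.

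Some markers that are not carriers shared this order and others did not. Of the 15 proximal tubule markers that are not carriers, such as megalin (Lrp2) and the glutathione peroxidase Gpx3, 13 were lowest in replicate 3, and their share of the reads was 1.75%, 1.22%, 0.767% and 1.19%. The 6 erythroid genes were all highest in replicate 3, with shares of 0.0998%, 0.125%, 0.182% and 0.127%. Endothelial markers were highest there in 5 of the 7 that were present and took 0.584%, 0.678%, 0.775% and 0.652% of the reads. Podocyte markers followed another order: 9 of 10 were highest in replicate 1 and lowest in replicate 2, with shares of 1.18%, 0.684%, 0.897% and 1.06%. The part of cell composition in the carrier values was not tested.

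**Figure D1:**
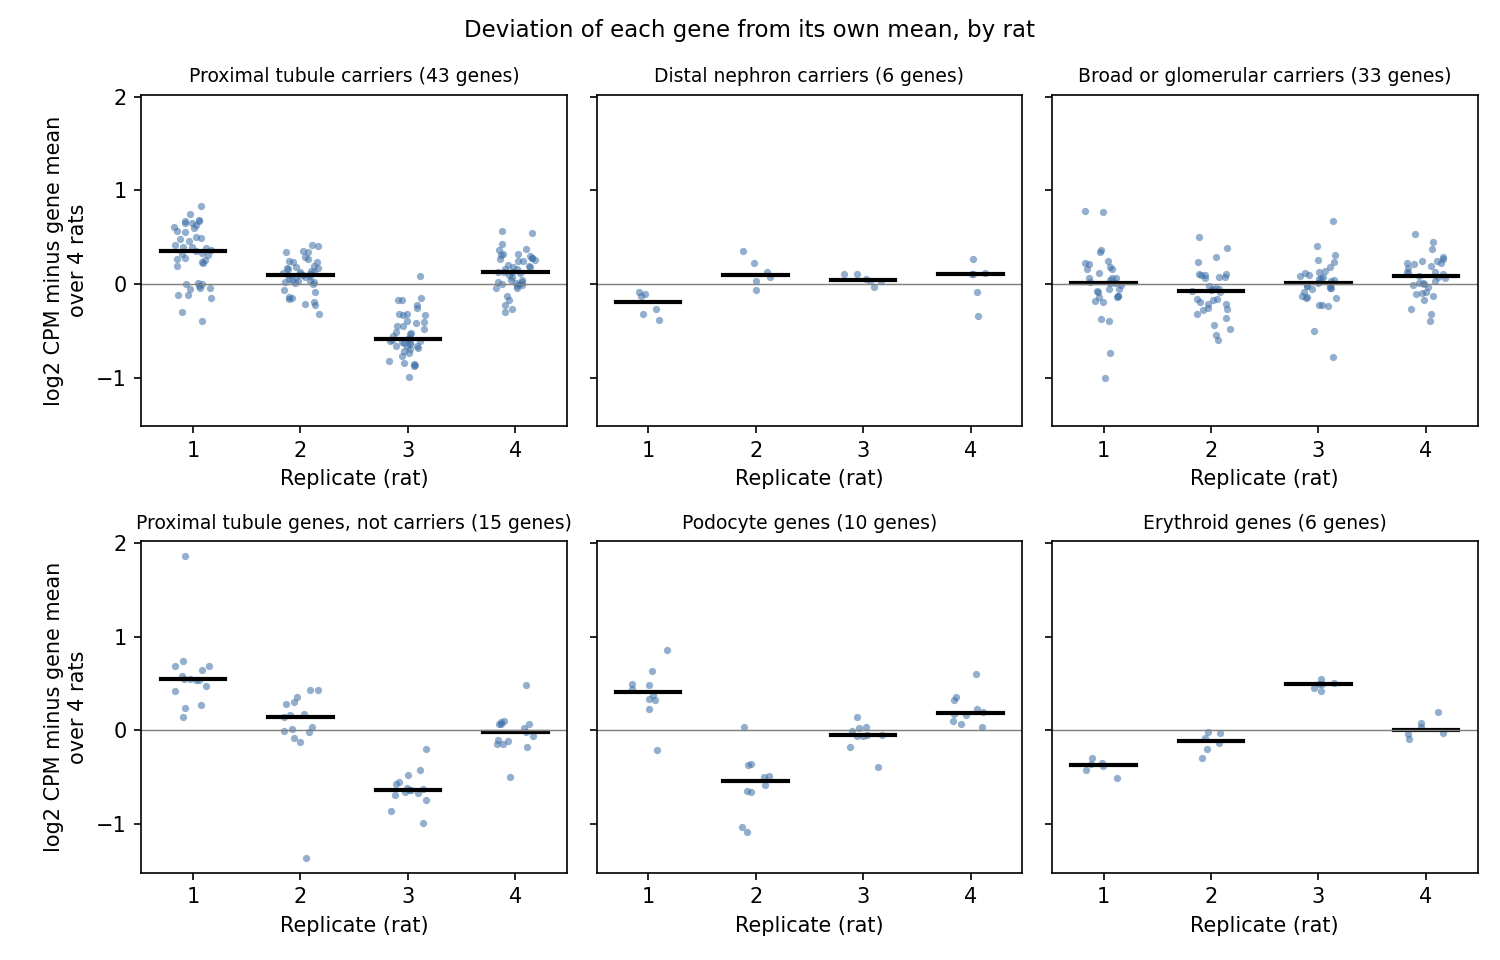
Each point is 1 gene, placed by its log2 CPM in a replicate minus its own mean over the 4 replicates; black bars are medians over the genes of the panel. The proximal tubule carriers have a median of -0.59 in replicate 3 and 0.35 in replicate 1, while the medians of the distal nephron carriers stay between -0.19 and 0.11 and those of the broad list between -0.07 and 0.09.

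Slc34a1 (ENSRNOG00000015262) encodes the main sodium phosphate cotransporter of the proximal tubule brush border, NaPi-IIa. Its values were 1749, 1537, 1119 and 1818 CPM in replicates 1 to 4. Replicate 3 was the low one, and the Poisson intervals of the reads did not overlap between any of the replicates. Its SD was 0.32 on the log2 scale. Its close relative Slc34a3 (NaPi-IIc), which the naming rule does not include, gave 122, 94.3, 59.4 and 106 CPM, again with the lowest value in replicate 3.

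Among carriers that take up monocarboxylates and sugars, Slc5a12 gave 140, 110, 55.5 and 119 CPM. Replicate 3 stood at 0.452 times the mean of the others, a lower ratio than the 0.658 of Slc34a1. The glucose cotransporter of the early proximal tubule, Slc5a2 (SGLT2), gave 341, 252, 176 and 334 CPM, so that replicates 1 and 4 were close together and replicate 3 was the lowest. Slc5a1 (SGLT1), which serves the late proximal tubule, gave 4.28, 3.64, 2.67 and 3.87 CPM. Glucose leaves the cell through Slc2a2 (GLUT2), which gave 56.2, 50.2, 24.4 and 57.3 CPM. All 8 Slc5 genes of the table were lowest in replicate 3, beside 19.6% of all genes. In 4 of the 8 the gap exceeded the Poisson intervals, beside 4.62% of all genes.

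Of the amino acid carriers of the proximal tubule, 4 are given here. Slc3a1 gave 332, 285, 192 and 282 CPM. Its partner in cystine and dibasic amino acid uptake, Slc7a9, gave 104, 108, 52.3 and 107 CPM, with the other 3 replicates nearly equal. The neutral amino acid carrier Slc6a19 (B0AT1) gave 136, 117, 72.4 and 136 CPM. On the basolateral side, the exchanger subunit Slc7a7 gave 217, 173, 93.5 and 158 CPM. In these 4 genes replicate 3 lay below the other values.

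Among acid, base and anion carriers, Slc4a4 (NBCe1), which returns bicarbonate to the blood, gave 238, 144, 75.3 and 123 CPM, a 3.16-fold range. The apical sodium proton exchanger Slc9a3 (NHE3) gave 48.9, 35.4, 20.1 and 35.8 CPM. The basolateral dicarboxylate carrier Slc13a3 gave 585, 366, 225 and 365 CPM, so replicate 1 stood well above replicates 2 and 4, which were equal within their Poisson intervals. The sulfate carrier Slc13a1 went a different way at the top: 112, 161, 78.8 and 149 CPM, with replicates 2 and 4 above replicate 1 and replicate 3 still the lowest.

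The Slc22 family carries organic cations, anions and carnitine, and 12 of its genes were in the table. Of these, 10 were lowest in replicate 3 and 8 were highest in replicate 1. The basolateral organic anion transporter Slc22a6 (OAT1) gave 413, 222, 164 and 244 CPM, and Slc22a8 (OAT3) gave 269, 186, 118 and 155 CPM. The organic cation transporter Slc22a2 (OCT2) gave 36.0, 20.4, 16.7 and 26.0 CPM. For these 3 basolateral genes replicate 1 was the highest and replicate 3 the lowest.

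The urate exchanger of the brush border, Slc22a12 (URAT1), was flatter and not highest in replicate 1, at 146, 165, 117 and 159 CPM. Slc22a25 gave 41.1, 23.1, 16.0 and 28.9 CPM and Slc22a22 gave 4.20, 3.46, 1.63 and 4.79 CPM. In the RefSeq annotation of GRCr8, Slc22a25 overlaps both Slc22a6 and Slc22a8. How reads of overlapping or closely similar genes were assigned is not given in the sources used here, so the values of the 3 overlapping genes may share reads.

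The carnitine carrier Slc22a5 (OCTN2), which was in none of the location lists, gave 171, 143, 91.5 and 141 CPM. Slc22a23 gave 90.6, 56.6, 32.6 and 52.3 CPM and Slc22a18 gave 57.8, 53.7, 40.1 and 49.1 CPM. The 2 genes of the family that departed from the order were Slc22a17, the lipocalin receptor, with 33.5, 46.6, 44.8 and 39.6 CPM, and Slc22a15, with 15.3, 21.2, 21.1 and 19.8 CPM. Both were lowest in replicate 1. Export of organic cations at the brush border runs through Slc47a1 (MATE1), which gave 104, 72.9, 36.4 and 65.1 CPM, replicate 3 being the lowest.

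The 3 proximal tubule carriers whose lowest value was not in replicate 3 are given although the rule for naming genes does not include them. The anion exchanger Slc26a6 was lowest in replicate 1, at 17.5, 29.4, 24.6 and 22.4 CPM. The nucleoside carrier Slc28a1 gave 19.8, 17.0, 14.1 and 13.2 CPM. The bile acid carrier subunit Slc51a gave 3.46, 4.69, 3.13 and 3.02 CPM. In Slc28a1 and Slc51a replicate 4 was the lowest, by less than the Poisson intervals.

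**Figure D2:**
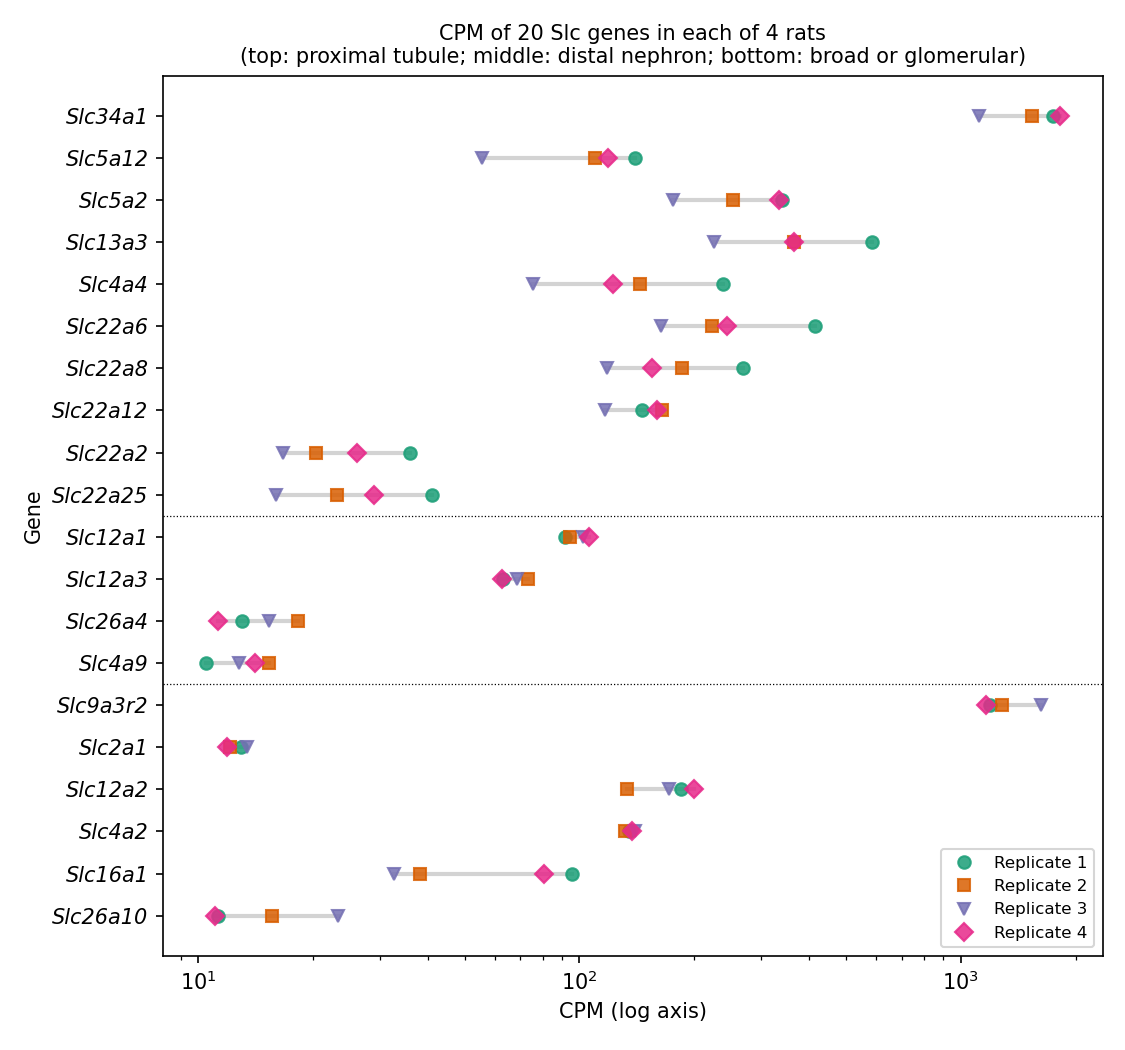
CPM of 20 Slc genes on a log axis, 1 symbol per replicate, with a grey bar from the lowest to the highest replicate. In the upper group the replicate 3 triangle lies at the left end of all bars, from Slc34a1 at 1119 CPM down to Slc22a25 at 16.0 CPM; in the middle group of distal nephron carriers it lies inside the bar.

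The order of the whole set of replicates was less uniform than the place of replicate 3. The order 1, 2, 4, 3 from high to low was that of 12 proximal tubule carriers, and 11 followed 1, 4, 2, 3, orders found in 5.11% and 5.46% of all genes. Another 7 followed 4, 1, 2, 3 and 6 followed 2, 4, 1, 3.

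Distal nephron carriers did not share the low value in replicate 3: it was the lowest for 0 of 6, beside 19.6% of all genes. Slc12a1 (ENSRNOG00000005367) gave 91.5, 94.2, 102 and 106 CPM, a 1.16-fold range. Slc12a3 (ENSRNOG00000057072) gave 62.9, 73.1, 68.4 and 62.7 CPM. For both salt cotransporters replicate 3 lay between the other values, at 1.05 and 1.03 times the mean of the others. The chloride bicarbonate exchanger pendrin, Slc26a4, which marks intercalated cells, gave 13.0, 18.3, 15.3 and 11.3 CPM, and the intercalated cell carrier Slc4a9 gave 10.5, 15.3, 12.8 and 14.1 CPM.

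The remaining distal genes were Slc4a11, at 5.68, 7.77, 7.56 and 8.92 CPM, and Slc41a3, at 5.38, 6.60, 6.97 and 7.02 CPM. Replicate 1 was lowest for 4 of the 6 distal genes, against 35% of all genes, and in 0 of them beyond the Poisson intervals, against 8.33% of all genes. The list took 0.0189%, 0.0215%, 0.0213% and 0.0210% of the reads, or 0.0207% ± 0.0012 (SD, n = 4). Of the 9 distal markers present that are not carriers, 1 was lowest in replicate 3, and together they took 0.0427% to 0.0599% of the reads. With 6 genes, of which Slc12a1 and Slc12a3 take most of the reads, the list gives a narrow view of the distal nephron.

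The broad or glomerular carriers had no common order: the most frequent one was shared by 5 of 33 genes. Replicate 3 was the lowest for 7 of them, beside 19.6% of all genes, and beyond the Poisson intervals for 0, beside 4.62%. Replicate 2 was the lowest for 12, where 31.5% of all genes were lowest. Without replicate 2, replicate 3 was the lowest for 13. The median ratio of replicate 3 to the mean of the others was 0.997, and the median log2 difference of 0.02 became -0.02 with median-of-ratios scaling. These carriers took 0.436%, 0.428%, 0.480% and 0.448% of the reads, or 0.448% ± 0.023 (SD, n = 4).

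Among widely expressed carriers, the anion exchanger Slc4a2 gave 135, 132, 140 and 137 CPM, a spread the chi-square test below did not separate from counting noise (adjusted p = 0.295). The glucose carrier Slc2a1 (GLUT1) gave 13.0, 12.1, 13.4 and 11.9 CPM. The phosphate carrier Slc20a1 (PiT-1), also a retrovirus receptor, gave 102, 120, 108 and 117 CPM, in contrast to the tubular phosphate carriers above. The amino acid exchanger subunit Slc7a5 (LAT1) gave 11.3, 8.33, 11.4 and 7.61 CPM, and its heavy chain Slc3a2 gave 274, 208, 207 and 287 CPM. The Na-K-2Cl cotransporter found in many cells, Slc12a2 (NKCC1), gave 185, 133, 172 and 199 CPM, lowest in replicate 2.

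In the same list, the scaffold Slc9a3r2 (NHERF2), which is known from podocytes, gave 1190, 1285, 1621 and 1161 CPM and was highest in replicate 3. The related scaffold Slc9a3r1 (NHERF1), known from the proximal tubule brush border and kept out of both lists, gave 201, 175, 128 and 141 CPM and was lowest there. Slc44a2, a choline carrier, gave 369, 387, 460 and 409 CPM, and the heme carrier Slc48a1 gave 442, 317, 383 and 450 CPM. So the 2 scaffolds had opposite extremes in the same library.

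Carriers of blood cells and macrophages were lowest in replicate 3 for 1 of 6, near the 19.6% of all genes. Slc4a1, the anion exchanger of red cells and of intercalated cells, gave 27.5, 24.0, 32.1 and 36.7 CPM, and so was not highest in replicate 3 as the 6 erythroid genes were. Of the macrophage carriers, Slc11a1 (NRAMP1) gave 13.2, 18.3, 15.3 and 14.6 CPM. Slc15a3, a peptide and histidine carrier, gave 34.6, 30.7, 34.3 and 35.7 CPM.

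The iron exporter Slc40a1 (ferroportin) gave 5.09, 4.87, 2.74 and 5.25 CPM, with the lowest value in replicate 3. The sugar carrier Slc2a6 gave 19.3, 18.4, 28.1 and 27.6 CPM, and Slc37a2 gave 7.89, 9.87, 14.4 and 11.3 CPM. These 2 genes were above their own mean in replicates 3 and 4.

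The median log2 CPM of each list was computed per replicate. For proximal tubule carriers it ran from 5.19 in replicate 3 to 6.04 in replicate 2, or 5.76 ± 0.39 (SD, n = 4). The distal list had 3.55, 4.07, 3.81 and 3.66, or 3.77 ± 0.22, and the broad list had 6.14, 5.55, 5.39 and 6.24, or 5.83 ± 0.42. Blood and macrophage carriers had 4.00, 4.20, 4.38 and 4.33, or 4.23 ± 0.17. Different genes can be the median in each replicate, and the median of the broad list varied more than its median member did. Transcript lengths were not used, so no order between the lists is drawn from these levels.

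Whether a gene varied more than counting noise was tested with a chi-square index of dispersion on the whole reads recovered from the deposited values, with Benjamini-Hochberg adjustment over all genes. At an adjusted p under 0.05, 204 of 261 Slc genes varied, beside 69.5% of all genes. Of the proximal tubule carriers 40 of 43 passed, of the distal carriers 5 of 6 and of the broad carriers 28 of 33. Most genes thus differed between the 4 libraries by more than counting noise.

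A stricter question is whether a gene varied more than genes of similar abundance. The limma fit of log2(CPM + 1), with its abundance trend, called 0 Slc genes at an adjusted p under 0.05, beside 0% of all genes. No adjusted p was below 0.912. With 4 replicates this test has little power, so the absence of calls does not show that Slc genes vary little. Before adjustment, 37 of 261 Slc genes had a p under 0.05, beside 5.47% of all genes, and 22 of these 37 were proximal tubule carriers. Without replicate 3 the 37 became 14 of 261, beside 661 of 13261 over all genes, so the 2 shares were close. A second test, Pearson's statistic of the reads at a dispersion fixed by abundance, called 45 of 261 at an adjusted p under 0.05, beside 7.53% of all genes. The 2 tests thus differ in their calls, and the genes below rest on the second. That second test treats the dispersion as known and shared by genes of similar abundance. Its p-values leave out the uncertainty of the dispersion, so very small ones overstate what a few libraries can show.

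By list, the fixed-dispersion test called 24 of 43 proximal tubule carriers, 0 of 6 distal carriers, 4 of 33 broad carriers, 0 of 6 blood and macrophage carriers and 17 of 173 others. Without replicate 3 it called 6 of the proximal tubule carriers, 9 of the 173 others (5.20%) and 17 of all Slc genes (6.51%), beside 4.61% of all genes at that setting, so the last 2 shares were near the background. Without replicate 1, 17 proximal tubule carriers were called, beside 5.03% of all genes. The 4 broad carriers became 2 (6.06%) without replicate 1, 3 or 4, and the 17 others became 11 (6.36%) without replicate 4. Both shares were near those of all genes, which fell from 7.53% to 5.03%, 4.61% and 4.73% without replicates 1, 3 and 4. Of the 12 Slc22 genes 7 were called, beside 7.53% of all genes, 2 without replicate 1, beside 5.03%, and 4 without replicate 3, beside 4.61%. Of the 261 Slc genes 38 were both called and lowest in replicate 3, beside 2.51% of all genes. Among called genes alone, this is 38 of 45 Slc genes beside 333 of 999 over all genes. The median SD on the log2 scale was 0.45 for the proximal tubule list, 0.21 for the distal list, 0.18 for the broad list, 0.24 for all Slc genes and 0.18 for all genes.

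**Figure D3:**
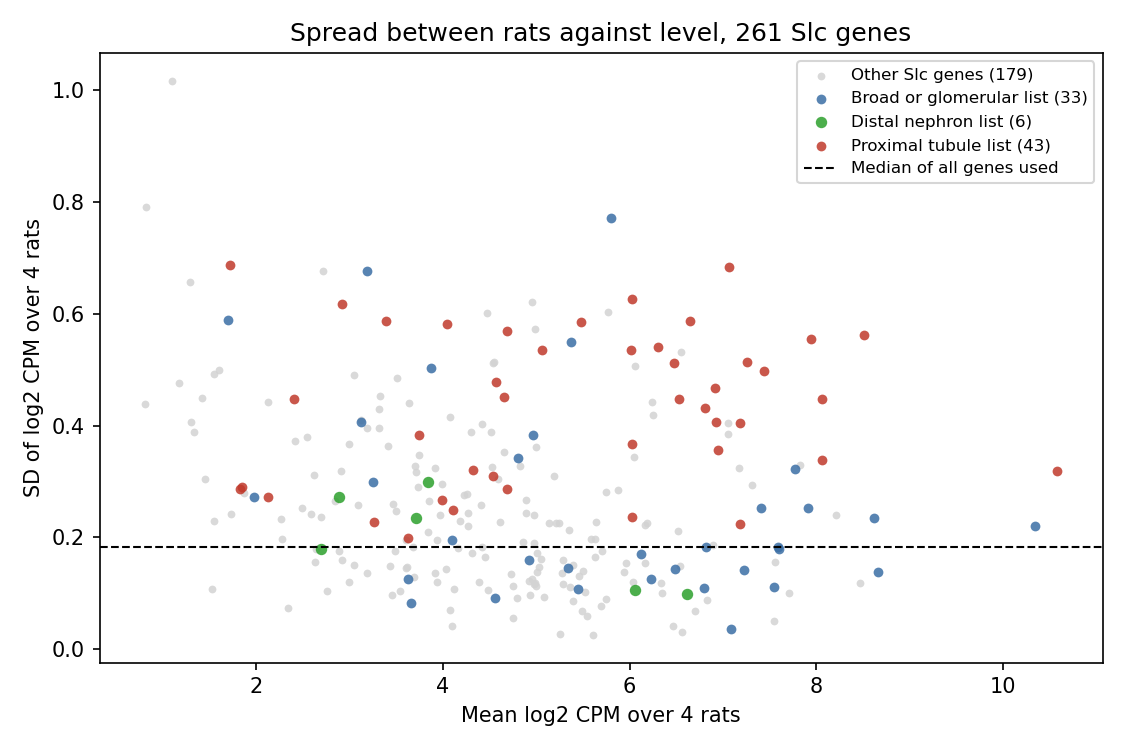
SD over the 4 replicates against mean log2 CPM for 261 Slc genes, coloured by list, with the median SD of all genes (0.18) as a dashed line. All 43 proximal tubule carriers lie above the line, the lowest at 0.20, and Slc12a1 and Slc12a3 (green, right) lie below it.

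The smallest adjusted p-values of the fixed-dispersion test belonged to Slc4a4 (8.81e-11) and to Slc16a1 (4.56e-10). Slc16a1 is the lactate and pyruvate carrier MCT1 of many cell types, and gave 95.5, 38.1, 32.6 and 80.8 CPM. Replicates 1 and 4 were high and replicates 2 and 3 low. This gene of the broad list thus ran 1, 4, 2, 3 from high to low, as did 11 proximal tubule carriers. The copper importer Slc31a1 (CTR1), also of the broad list, gave 70.6, 34.5, 29.4 and 41.5 CPM (adjusted p = 5.36e-08). The sodium calcium exchanger Slc8a2 gave 52.6, 21.7, 21.9 and 36.9 CPM (adjusted p = 2.32e-07), with its 2 low values in replicates 2 and 3.

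Among the other genes with small p-values were Slc47a1 (adjusted p = 2.02e-07), Slc22a23 (3.07e-07) and Slc5a12 (1.6e-05) by the same test. With limma their adjusted p was 0.912 each, as was that of Slc4a4 and Slc16a1.

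The called genes outside the proximal tubule list numbered 21 of 218, or 9.63% beside 7.53% of all genes, a share near the background. Of the 21, 14 were lowest in replicate 3, beside 333 of 999 called genes over all; those given here were picked after their values were seen. The monocarboxylate family Slc16 had 5 called genes of 12, all of them lowest in replicate 3. Beside Slc16a1 they included Slc16a12, a creatine carrier, with 172, 135, 89.5 and 149 CPM, Slc16a14 with 120, 110, 54.1 and 107 CPM, and Slc16a4 with 36.6, 19.9, 13.5 and 24.8 CPM. The glutamine carrier Slc38a3 (SNAT3), which was 1 of 7 SLC38 genes, gave 49.1, 26.7, 19.9 and 38.1 CPM (adjusted p = 2.26e-05). A place outside the list does not mean that a gene is absent from the proximal tubule.

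A few called genes had another order. The thiamine carrier Slc19a2 gave 103, 45.6, 56.5 and 73.9 CPM and was lowest in replicate 2. Slc43a2, a neutral amino acid carrier, gave 105, 58.6, 60.5 and 89.5 CPM, and the sodium calcium exchanger Slc8a1 gave 40.3, 22.5, 28.5 and 37.1 CPM. These 3 genes ran 1, 4, 3, 2 from high to low, as did 9 of the 10 podocyte markers and 9.43% of all genes.

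In the opposite direction, Slc43a3, a nucleobase carrier, gave 48.2, 94.7, 88.5 and 80.5 CPM and was lowest in replicate 1. Slc26a10 was highest in replicate 3, at 11.3, 15.6, 23.3 and 11.1 CPM (adjusted p = 0.00551). Its replicate 3 value was 1.84 times the mean of the others.

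The 39 mitochondrial carriers of the Slc25 family had 1 called gene, beside 7.53% of all genes, and it is named here for that call: Slc25a13, an aspartate glutamate carrier, with 37.5, 23.0, 16.0 and 20.8 CPM. Their median SD was 0.18, beside 0.18 for all genes, and 19 of 39 (48.7%) were lowest in replicate 3, beside 19.6% of all genes. In 9 of the 39 this exceeded the Poisson intervals, beside 4.62% of all genes. The phosphate carrier Slc25a3 gave 389, 357, 319 and 361 CPM, and the adenine nucleotide carrier Slc25a5 gave 359, 298, 239 and 303 CPM. Both were lowest in replicate 3, at 0.864 and 0.747 times the mean of the others.

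Of 20 genes of the Slc35 family, which is known for nucleotide sugar carriers, 1 was called. Of 19 zinc carriers of the Slc30 and Slc39 families 1 was called, and both shares were near the 7.53% of all genes. Replicate 3 was the lowest for 8 of the 20 and 3 of the 19, beside 19.6% of all genes.

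The steadiest Slc genes with a mean of at least 10 CPM were a fatty acid carrier, Slc27a4, with 47.5, 49.5, 48.4 and 49.0 CPM, and Slc25a46, with 37.4, 37.8, 39.0 and 38.8 CPM. The gene Slc66a2 gave 96.8, 91.9, 93.4 and 94.4 CPM, and the zinc carrier Slc30a6 gave 16.7, 16.5, 17.5 and 17.4 CPM. Slc4a2 was the other of the 5. In none of these did the chi-square test find variation beyond counting noise, with the lowest adjusted p at 0.295.

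The 43 proximal tubule carriers were also split by the membrane they are known to occupy, a split made after the values were seen and so given without a test. The 13 basolateral carriers were higher in replicate 1 than in replicate 2 by a median of 0.54 on the log2 scale, and 11 of 13 were higher there. The 25 brush border carriers differed by a median of 0.19, and 16 of 25 were higher in replicate 1, beside 50.8% of all genes. Both sides were lowest in replicate 3, for 12 of 13 and 23 of 25. The 5 other carriers of the list were not assigned to a side.

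**Figure D4:**
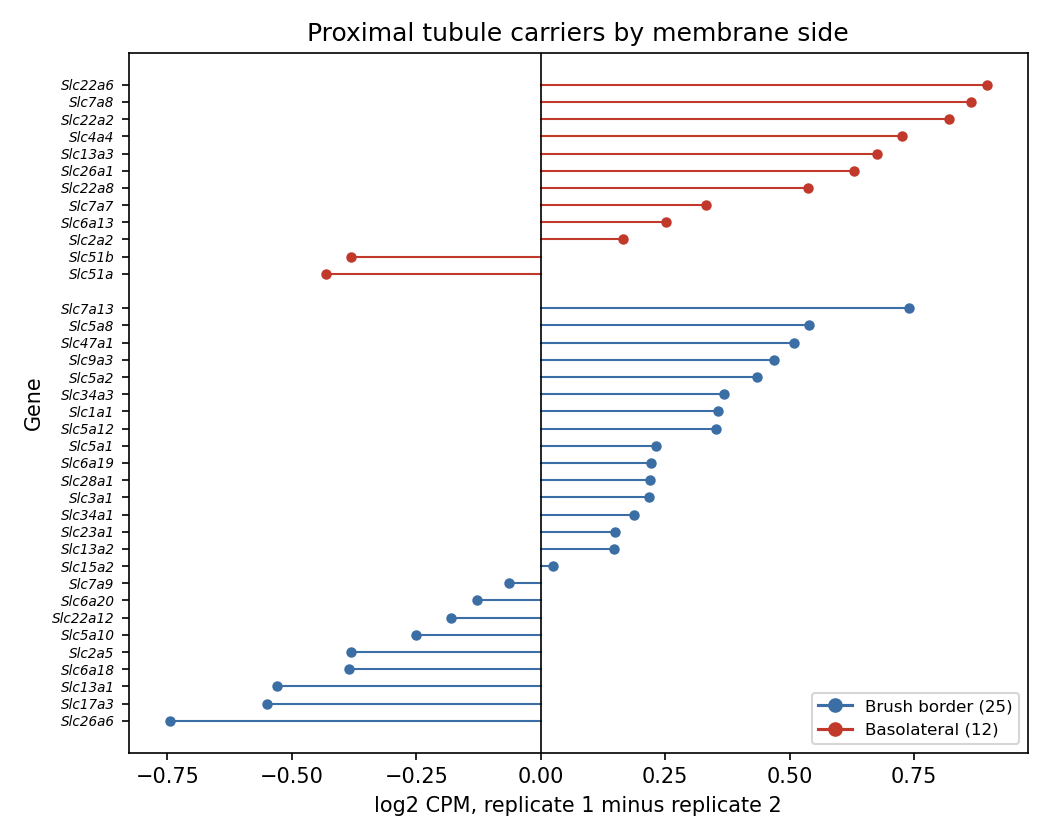
Difference in log2 CPM between replicate 1 and replicate 2 for 12 basolateral and 25 brush border carriers of the proximal tubule list; the values of the other basolateral carrier are not reported here. The basolateral carriers drawn run from -0.43 to 0.90 and brush border carriers from -0.74 to 0.74, so the 2 sets overlap.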

How the data were processed

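Glomerular poly(A) RNA of 4 replicates in 1 group was analysed. The authors deposited log2 values per gene; per the submitters' processing notes, HISAT2, featureCounts, Subread, limma and the Rnor_6.0 assembly were used, with versions, roles and strand setting not given in the sources used here. The deposited log2 values step as log2 of reads plus 0.5, scaled per library. Whole reads were recovered for 100% of values (tolerance 0.01 reads). Of 13265 rows, 4 had displaced values and were left out. CPM is reads scaled to a common total over the 13261 genes used. Exact Poisson intervals (95%) cover counting error only, since PCR copies (12 cycles) carry no molecular identifiers.

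The 3 tests ran over all genes with Benjamini-Hochberg adjustment (threshold 0.05): a chi-square index of dispersion on reads; limma 3.58.1 in R 4.3.3, an intercept-only fit of log2(CPM + 1) with abundance trend; and Pearson's statistic at a dispersion fixed in 40 abundance bins. Scripts were tested on simulated data. Alternatives covered scaling, filters, pseudocount and leaving out each replicate. Members, lists and tests were chosen with earlier results of these data known.

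Genes named by rule (74) were Slc34a1, Slc5a12, Slc12a1 and Slc12a3, all Slc22 genes, the 10 largest by mean CPM, the top 3 and the last of each list, the 5 smallest p-values of limma and of the fixed-dispersion test, the 5 smallest SDs, all distal and blood carriers and chosen transporters of known function; others are marked as chosen after their values were seen or belong to a family or called set described. Not all named genes are printed, and some items are not reported here. The levels of genes were not compared per length, because no lengths matching the table were used.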

Additional observations from a re-analysis of the deposited data

Results flagged for a closer look

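In 5 of 84 gene values and list values tested, 1 replicate stood apart from the other 3 by more than Dixon's 95% limit for 4 values; chance flags about 1 in 20, or 4.2 of 84. In all 5 the replicate was replicate 3 and the value was low. For the cystine carrier subunit Slc7a9 the gap was 0.940 of the range, with 104, 108, 52.3 and 107 CPM. For ferroportin, Slc40a1, it was 0.886, with 5.09, 4.87, 2.74 and 5.25 CPM. The adenine nucleotide carrier Slc25a4 had 0.864, with 219, 215, 189 and 215 CPM. The glucose carrier Slc2a2 had 0.845, with 56.2, 50.2, 24.4 and 57.3 CPM. The nucleotide sugar carrier Slc35b4 had 0.836, with 52.6, 53.6, 47.8 and 53.3 CPM. Slc7a9 and Slc2a2 also passed the fixed-dispersion test (adjusted p = 0.00326 and 0.00156), and Slc40a1, Slc25a4 and Slc35b4 did not (adjusted p = 0.821, 1 and 1). The spread of Slc35b4 was not separated from counting noise by the chi-square test (adjusted p = 0.111). Over all Slc genes 22 (8.43%) passed the same limit, beside 5.08% of all genes.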

How the results depend on the processing

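With 1 group of 4 replicates, no contrast between conditions can be made, and the Slc gene with the fewest reads had 13 in a library. No paired analysis was possible because there is a single group. Leaving out mitochondrially encoded genes from the totals raised the median of all genes by 0.11 to 0.19 log2 in the 4 replicates. Of 554 alternative values, 97 summary values and 430 other values stayed within the limits set, and 10 and 17 did not; the 17 were mean levels of single genes without mitochondrially encoded genes in the totals. The fixed-dispersion test called 17 Slc genes without replicate 3, up to 46 without replicate 2 among the fits that left out a replicate. It called 50 with median-of-ratios factors. In all settings run limma called 0. At an unadjusted limma p under 0.05 there were 14 Slc genes without replicate 3, up to 47 without replicate 2. Over all genes these settings gave 661 and 693. Broad carriers lowest in replicate 3 numbered 7 to 13 when a replicate was left out. Beyond the Poisson intervals they numbered 0, beside 4.62% of all genes. Distal carriers lowest in replicate 1 numbered 0 beyond these intervals, beside 8.33% of all genes. Restricted to members with a mean of at least 10 CPM, list medians were 6.28 for the proximal tubule, 4.99 for distal, 6.42 for broad and 4.52 for blood and macrophage carriers, and, over all members, list means were 4.30 for distal and 3.99 for blood and macrophage carriers; the change of members or of the summary is built into these alternatives. The 40 proximal tubule carriers lowest in replicate 3 were 40 to 42 when another replicate was left out and 40 under either scaling.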

Other observations

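Membrane side was set beside the values of replicates 1 and 2 after those values were seen. The median difference of basolateral carriers exceeded that of brush border carriers by 0.35 on the log2 scale, and by 0.44 among members with a mean of at least 10 CPM. Rescaling a library cannot change this value, since it shifts all genes alike. The fixed-dispersion test called 11 of 13 basolateral and 11 of 25 brush border carriers, beside 7.53% of all genes. The difference between the 2 sets was not tested.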
